A study of Mus musculus with 9 samples.

Results

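Enzymes that write, copy and remove DNA methylation were followed across ntESCs, mouse embryonic stem cells derived by nuclear transfer, a method in which the nucleus of a body cell is put into an enucleated oocyte and the resulting embryo yields pluripotent cells. The genes were Dnmt1, Dnmt3a, Dnmt3b, Dnmt3l, Uhrf1, Tet1, Tet2 and Tdg. Their probes were taken by gene symbol in the platform annotation, every probe of each gene, and the genes themselves were chosen with earlier results of these data known. Of these 8 genes 6 had a probe, and together they had 11 of the 25697 probes. No probe was paired with Tet1 or Tet2 (0 probes each), so neither was analysed here. Dnmt1 had 1 probe and the other 5 genes had 2 each, called the brighter and the dimmer probe after their mean signal.

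The groups were Terc-/- ntESCs, Terc+/- ntESCs and Terc+/+ ntESCs, with 3 bead arrays each and 9 in all. Terc encodes the RNA template of telomerase, and the comparisons ask how expression differed with its dose. All groups had the C57BL/6 strain background and were grown without serum, in KSR/KO-DMEM with LIF, on mouse embryonic fibroblasts (MEF) arrested with mitomycin-C, which were taken away before RNA extraction. The design text calls the 3 arrays of a genotype biological repeats, but whether these were separate lines or cultures of 1 line is not given in the sources used here, so p-values measure the spread between these samples, which may be partly technical. Terc itself had 0 probes, and the genotypes rest on the labels.

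In mammalian DNA the methyl mark sits mostly on cytosine in CpG pairs. Dnmt3a and Dnmt3b set new marks, with Dnmt3l, which has no catalytic activity of its own, as their cofactor, while Dnmt1 copies marks onto the new strand after replication at sites that Uhrf1 finds. Tet enzymes oxidize the methyl group, and Tdg cuts out the oxidized bases so that repair can put back plain cytosine. Embryonic stem cells are known for high Dnmt3b, Dnmt3l and Tet1, and Dnmt3l is largely silent in somatic cells.

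Dnmt3b and Dnmt3l gave the widest ranges over the arrays of all members, and the sequences before their RefSeq start sites are shown to set these genes side by side at the dinucleotide that the enzymes act on. Each run holds the 250 bases before a start site in RefSeq's mouse build GRCm38.p6, read 5′ to 3′ along the gene, with every CpG in capitals.
Dnmt3b, chr2:153649199-153649448, + strand: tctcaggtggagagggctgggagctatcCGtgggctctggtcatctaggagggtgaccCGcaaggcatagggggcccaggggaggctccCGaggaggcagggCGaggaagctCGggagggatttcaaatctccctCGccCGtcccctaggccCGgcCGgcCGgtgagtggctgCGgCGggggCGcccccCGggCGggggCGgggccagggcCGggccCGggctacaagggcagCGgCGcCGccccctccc
Dnmt3l, start 1, chr10:78042037-78042286, + strand: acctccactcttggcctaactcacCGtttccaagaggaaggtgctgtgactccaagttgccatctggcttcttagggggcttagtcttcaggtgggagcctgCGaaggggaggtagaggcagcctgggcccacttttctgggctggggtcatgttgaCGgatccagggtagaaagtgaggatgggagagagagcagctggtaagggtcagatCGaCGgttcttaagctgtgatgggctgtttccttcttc
Dnmt3l, start 2, chr10:78049592-78049841, + strand: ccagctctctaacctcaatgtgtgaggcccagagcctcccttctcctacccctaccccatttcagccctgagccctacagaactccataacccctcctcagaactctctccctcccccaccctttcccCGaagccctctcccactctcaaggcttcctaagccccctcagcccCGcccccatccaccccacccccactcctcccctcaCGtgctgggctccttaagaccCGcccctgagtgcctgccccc
Dnmt3l, start 3, chr10:78055085-78055334, + strand: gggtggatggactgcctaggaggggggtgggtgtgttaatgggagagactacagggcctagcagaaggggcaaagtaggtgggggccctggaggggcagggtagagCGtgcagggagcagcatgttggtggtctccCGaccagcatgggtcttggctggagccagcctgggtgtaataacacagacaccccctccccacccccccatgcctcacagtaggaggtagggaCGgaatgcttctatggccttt
The Dnmt3b window held 21 CpG, and 16.3% of the 32851 promoter windows of that length held at least as many. The 3 Dnmt3l windows held 5, 4 and 3, a number reached by 55.6%, 62.2% and 71.0% of windows, and the median window held 6. The letters GGGCGG, searched on both strands and counted with overlaps, occurred 3 times before Dnmt3b, 0, 2 and 0 times before the Dnmt3l starts, and at least 1 time in 32.7% of all windows. A match of letters is a description and not a binding site. All 8 genes had a window, and the 7 other than Dnmt3l each had 1 with at least 15 CpG.

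Values are log2 signals deposited by the authors, so a difference of 1 is a doubling. They had the same distribution on every array (medians 5.94, upper quartiles 7.73), and pairs of arrays correlated at 0.950 to 0.995 over the probes, a description only, as probes are no replicates. Of the pluripotency markers all 13 measured had a mean above 6, and their mean level lay between 10.58 and 10.81 on the Terc-/- arrays, 10.61 and 10.83 on the Terc+/- arrays and 10.61 and 10.89 on the Terc+/+ arrays. These averages hide differences of single markers: 1 of 13, Lin28a, which blocks the maturation of let-7, was called higher in Terc-/- than in Terc+/+ (0.80, SE 0.09, adjusted p = 0.0480 with limma), where 0.0389% of all probes were called. With 1 array left out, Lin28a gave 0.72 to 0.89. It then passed only without Terc+/+ replicate 3 (adjusted p = 0.0181 with limma), and the other omissions gave adjusted p-values from 0.0622 to 0.305. At an unadjusted p under 0.05, 4 of 13 were higher and 2 lower in Terc-/- against Terc+/+, against 4.78% and 5.55% of all probes. In Terc+/- against Terc+/+ 4 were higher and 0 lower, against 4.4% and 3.94% of all probes. In Terc-/- against Terc+/- 1 was higher and 0 lower, against 1.81% of all probes in either direction. Fibroblast markers were not at background: 1 of 40 had a mean under 6, and their mean level lay between 8.70 and 10.08 in Terc-/-, 8.07 and 9.74 in Terc+/- and 7.73 and 9.84 in Terc+/+. Of these 40 markers 0 were called in any comparison with limma, and in both comparisons against Terc+/+ the direction of their means depended on single arrays. A higher mean in Terc-/- than in Terc+/+ was found for 32 of 40 (50.1% of all probes), but for 18 without Terc+/+ replicate 3, where their median difference was -0.08 in place of 0.51, and for 22 without Terc-/- replicate 3. In Terc+/- against Terc+/+ the mean was higher for 9 (50.4% of all probes), but leaving out Terc+/- replicate 1, 2 or 3 made this 1, 27 or 28, and leaving out Terc+/+ replicate 2 or 3 made it 33 or 3. In Terc-/- against Terc+/- it was higher for 40 (47.4% of all probes), and for 33 to 40 with 1 array left out. In bulk RNA, fewer cells of a type and less RNA per cell cannot be told apart. Terc+/+ replicate 3 held the lowest value of 22% of all probes and the highest of 22.9%, more than any other array in both.

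Dnmt3l, the cofactor of new methylation, had the largest mean difference from Terc+/+ among the enzymes, in Terc+/- cells, but passed the threshold in no comparison. Its brighter probe had 12.58, 12.20 and 12.24 on the Terc-/- arrays, 12.88, 12.63 and 12.53 on the Terc+/- arrays and 12.01, 11.50 and 12.32 on the Terc+/+ arrays. All 3 Terc+/- values lay above all Terc+/+ values, while Terc-/- values overlapped both other genotypes. The dimmer probe had 12.51, 12.21 and 12.14 in Terc-/-, 12.79, 12.66 and 12.43 in Terc+/- and 12.02, 11.58 and 12.37 in Terc+/+. Here too Terc+/- and Terc+/+ did not overlap, and both probes read the same gene in the same samples, so they are not separate evidence.

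In Terc+/- against Terc+/+, the brighter Dnmt3l probe was 1.67-fold higher in mean (log2 0.74, SE 0.21, 95% interval 0.26 to 1.22) with an unadjusted limma p of 0.00752 and an adjusted p of 0.350. The dimmer probe was 1.55-fold higher in mean (0.63, SE 0.20, adjusted p = 0.415 with limma). For Terc-/- against Terc+/+ the brighter probe gave 1.32-fold (0.40, SE 0.21, interval -0.08 to 0.88, adjusted p = 0.586 with limma) and the dimmer 1.23-fold. The Terc-/- against Terc+/- differences were -0.34 and -0.33, with intervals from -0.82 to 0.14 and from -0.80 to 0.13. These intervals use a spread pooled over all 3 genotypes. For the brighter probe the SD was 0.21 in Terc-/-, 0.18 in Terc+/- and 0.41 in Terc+/+. Both comparisons against Terc+/+ share the same 3 control arrays. With array quality weights, which give arrays with a larger scatter less influence, both Dnmt3l probes passed in Terc+/- against Terc+/+ (0.69 with adjusted p = 0.0437, and 0.63 with adjusted p = 0.0447, limma), and 751 of all probes were called in that setting against 0 without it. Terc+/+ replicate 1 carried 88.7% of the weight of the Terc+/+ mean in that fit, so these calls rest largely on 1 control array. Without Terc+/+ replicate 3 the brighter probe gave 0.92 in Terc+/- against Terc+/+ (adjusted p = 0.0997 with limma), and without Terc+/+ replicate 2 it gave 0.52 (adjusted p = 0.428). For Terc-/- against Terc+/+ the same omissions gave 0.58 and 0.18.

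Dnmt3b, the main enzyme of new methylation in early embryos, had the widest range over the arrays and passed the threshold in no comparison. Its brighter probe had 13.28, 12.67 and 12.69 in Terc-/-, 12.87, 12.88 and 12.91 in Terc+/- and 12.33, 11.73 and 13.42 in Terc+/+. The lowest and the highest of the 9 values were both Terc+/+ arrays, 3.24-fold apart, which is a wider range than that of 96.6% of all probes. The SD was 0.35 in Terc-/-, 0.0185 in Terc+/- and 0.86 in Terc+/+ (n = 3 each). Mean differences were 0.39 for Terc-/- against Terc+/+ (SE 0.38, interval -0.49 to 1.26, adjusted p = 0.811 with limma) and 0.39 for Terc+/- against Terc+/+ (SE 0.38, interval -0.48 to 1.27, adjusted p = 0.860). A rise of up to 2.40-fold in Terc-/- or a fall to 0.71 of the Terc+/+ level lies inside these limits. Without Terc+/+ replicate 3 the values were 0.85 and 0.86, and without Terc+/+ replicate 2 they were 0.003 and 0.009, none past the threshold. The dimmer probe had 7.76, 7.37 and 7.34 in Terc-/-, 7.50, 7.58 and 7.43 in Terc+/- and 7.21, 6.59 and 7.96 in Terc+/+, again lowest in Terc+/+ replicate 2 and highest in Terc+/+ replicate 3.

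Dnmt3a, the other enzyme of new methylation, was dim on this platform. Its probes ranged from 5.44 to 5.81 and from 5.16 to 5.58 over the 9 arrays, against a lowest value of 5.11 anywhere in the table, and 51.6% of all probes had a mean under 6. Their differences between genotypes lay between -0.09 and 0.03, near the bottom of the scale.

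Dnmt1, the enzyme of maintenance, had 10.57, 10.48 and 10.19 in Terc-/-, 10.07, 10.44 and 10.68 in Terc+/- and 10.32, 10.04 and 10.68 in Terc+/+. The genotypes overlapped, with differences of 0.06 for Terc-/- (SE 0.20, interval -0.41 to 0.53) and 0.05 for Terc+/- (SE 0.20, interval -0.42 to 0.52) against Terc+/+. Uhrf1, which brings Dnmt1 to freshly copied DNA, had the narrowest spread of the bright probes: 13.04, 12.85 and 12.73 in Terc-/-, 12.80, 12.83 and 12.92 in Terc+/- and 12.79, 12.64 and 12.92 in Terc+/+. Its intervals against Terc+/+ ran from -0.14 to 0.33 for Terc-/- and from -0.16 to 0.30 for Terc+/-, which is 0.91 to 1.25 times the Terc+/+ level in Terc-/- and 0.89 to 1.23 times in Terc+/-. The dimmer Uhrf1 probe ranged from 6.43 to 7.31, with differences of -0.04 and -0.05 against Terc+/+. Its intervals were wider, from -0.62 to 0.54 for Terc-/- and from -0.63 to 0.53 for Terc+/-. The narrower bounds are those of the brighter probe only.

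Tdg, the glycosylase of active demethylation, had 8.62, 8.31 and 8.24 in Terc-/-, 8.10, 8.76 and 8.29 in Terc+/- and 8.72, 8.48 and 8.09 in Terc+/+ with its brighter probe. All 3 genotypes overlapped, and the differences against Terc+/+ were -0.05 for Terc-/- (SE 0.21, interval -0.54 to 0.45) and -0.05 for Terc+/- (SE 0.21, interval -0.54 to 0.44). The dimmer probe lay between 5.43 and 5.63.

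**Figure D1:**
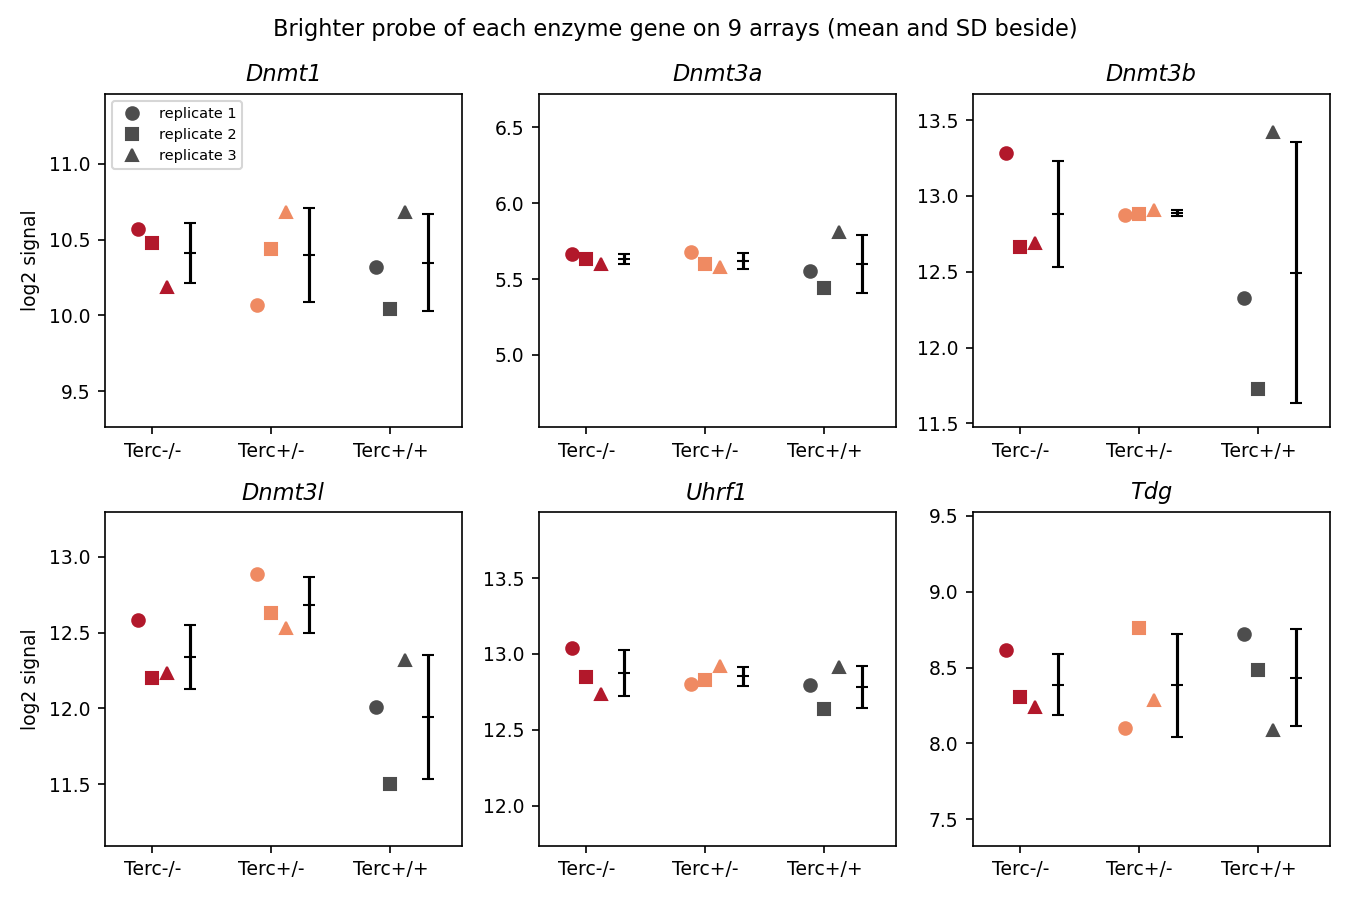
Log2 signal (y axis, each panel spanning the same number of log2 units) of the brighter probe of each gene, or the only probe of Dnmt1, on the 9 arrays, by Terc genotype. Symbols are arrays and bars are mean ± SD (n = 3). The Terc+/- values of Dnmt3l lie above the Terc+/+ values, and Dnmt3b is both lowest (11.73) and highest (13.42) in Terc+/+.

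Counted over all probes of the group, 0 of 11 passed an adjusted p under 0.05 with limma in Terc-/- against Terc+/+, where 0.0389% of all 25697 probes did. An unadjusted p under 0.05 was reached by 0 of 11, against 10.3% of all probes, and arrays that did not overlap by 0 of 11, against 14.8% of all probes. Means were higher in Terc-/- for 8 and lower for 3, where 50.1% of all probes were higher. The 11 probes read 6 genes, so they are not separate evidence. Their median log2 fold change was 0.09, and 0.0003 over all probes. In Terc+/- against Terc+/+ 0 of 11 passed (0 of all 25697 probes, 0%), and an unadjusted p under 0.05 was reached by 2, both of Dnmt3l, against 8.34% of all probes. The arrays did not overlap for these 2 of 11 probes, both higher in Terc+/-, against 12.2% of all probes in either direction and 6.81% higher. The median was 0.05, against 0.001 over all probes. The counts at an unadjusted limma p under 0.05 in both comparisons against Terc+/+ depended on Terc+/+ replicate 3. Without that array 4 of 11 reached it in Terc-/- against Terc+/+, where 4004 of all 25697 probes did. In Terc+/- against Terc+/+ 4 of 11 did, where 3425 of all probes did. Leaving out any other single array gave 0 and 2, the counts on all arrays. In Terc-/- against Terc+/- 0 of 11 passed with limma (0 of all probes, 0%), 0 had an unadjusted p under 0.05, against 1.81% of all probes, and 0 had arrays that did not overlap, against 7.85%. The fit takes its spread from all 3 genotypes, Terc+/+ included. With only the 2 genotypes compared, 2 of 11 had an unadjusted limma p under 0.05, where 776 of all probes did. With array quality weights 2 of 11 did too, where 1267 of all probes did. The median there was 0.0006, against -0.006 over all probes. Standard errors of the members lay between 0.07 and 0.38.

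**Figure D2:**
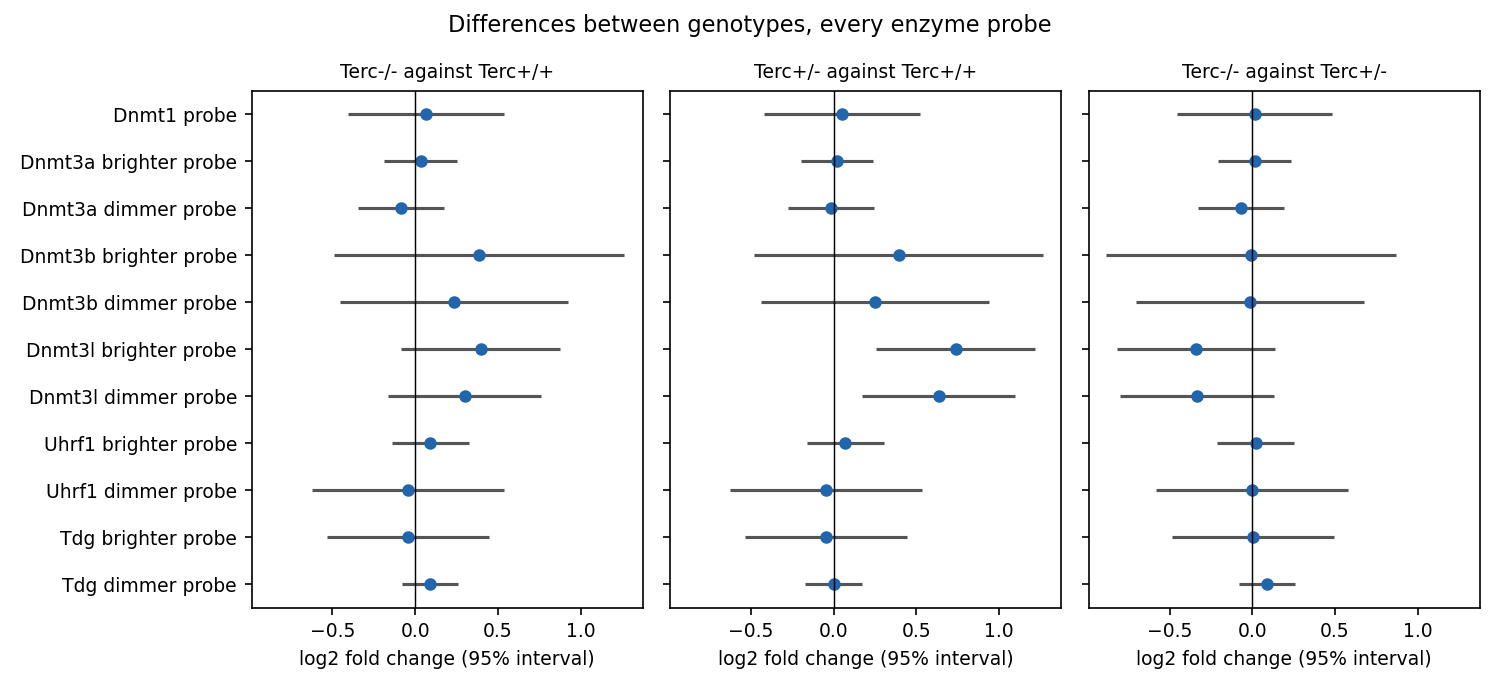
Log2 fold change (x axis) of each of the 11 probes in the 3 comparisons, with its 95% interval from limma. The intervals of both Dnmt3l probes in Terc+/- against Terc+/+ start at 0.26 and 0.17, above 0, before adjustment over all probes, and every other interval includes 0.

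The array with the lowest value recurred across members, while the highest values were more spread out. Terc+/+ replicate 3 held the highest value of 4 of the 11 probes, more than any other array, and of 22.9% of all probes. Terc+/+ replicate 2 held the lowest value of 7 of the 11 probes, namely those of Dnmt1, both Dnmt3b and both Dnmt3l probes and the brighter probes of Dnmt3a and Uhrf1, and it held the lowest value of 14.9% of all probes. Among the 15 pairs of genes, taken with their brighter probes, Pearson's r over the 9 arrays ran from -0.50 to 0.90, and 3 pairs had an adjusted p under 0.05. Dnmt1 and Uhrf1, the partners of maintenance, had r = 0.827 (n = 9, two-sided exact permutation p = 0.00443, and 0.0253 after adjustment for 15 pairs) and a Spearman's rho of 0.900, whose exact permutation p was 0.00203 (adjusted 0.0304), with r = 0.805 without the 2 arrays farthest from the median of Dnmt1. Dnmt3b and Uhrf1 had r = 0.852 (exact permutation p = 0.00506, adjusted 0.0253) and rho = 0.817 (exact permutation p = 0.0108, adjusted 0.0808), with r = 0.768 without 2 arrays. Dnmt3a and Dnmt3b had r = 0.895 (exact permutation p = 0.00216, adjusted 0.0253) and rho = 0.700 (exact permutation p = 0.0433, adjusted 0.151). Without 2 arrays that r was 0.653, and the Dnmt3a probe spanned 0.37 near the bottom of the scale. Dnmt3b and Dnmt3l had r = 0.773 (exact permutation p = 0.0182, adjusted 0.0683) and rho = 0.683 (exact permutation p = 0.0503, adjusted 0.151), with r = 0.728 without 2 arrays and 0.884 around the genotype means. No pair with Tdg passed, with r between -0.50 and 0.01 against the other 5 genes and adjusted p-values from 0.264 to 0.994 (exact permutation). The share of all gene pairs with an r as high as these is not given here. Dnmt1, Uhrf1 and Dnmt3b also fell with the fibroblast marker score defined below (r = -0.901, -0.688 and -0.606). The part of that score in these pairs was not tested.

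Dnmt1 was lower on arrays with more fibroblast signal. The fibroblast marker score of an array was the mean deviation of the 40 markers from their means over the arrays, and was highest, at 1.16, for Terc-/- replicate 3 and lowest, at -1.18, for Terc+/+ replicate 3. Dnmt1 fell with it at r = -0.901 (n = 9, exact permutation p = 0.0020, and 0.0120 after adjustment for 6 genes) and rho = -0.850 (exact permutation p = 0.00607, adjusted 0.0364). That r was -0.898 without the 2 arrays with the most extreme scores and -0.977 around the genotype means. Uhrf1 gave r = -0.688 (exact permutation p = 0.0379, adjusted 0.114), with rho = -0.767 (adjusted 0.0510, exact permutation) and r = -0.633 without 2 arrays. Dnmt3b gave r = -0.606 (exact permutation p = 0.0796, adjusted 0.159), with rho = -0.750 (adjusted 0.0510) and r = -0.564 without 2 arrays. Dnmt3a, Dnmt3l and Tdg gave -0.476, -0.306 and -0.132, with adjusted exact permutation p-values of 0.297, 0.520 and 0.726, and rho of -0.350, -0.350 and -0.033. The part of fibroblast RNA in these relations was not tested. With the score in the model, Dnmt1 gave 0.20 in Terc-/- against Terc+/+ (SE 0.07, adjusted p = 0.276 with limma) and the brighter Dnmt3l probe 0.72 in Terc+/- against Terc+/+ (SE 0.19, adjusted p = 0.148), close to its value without the score.

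**Figure D3:**
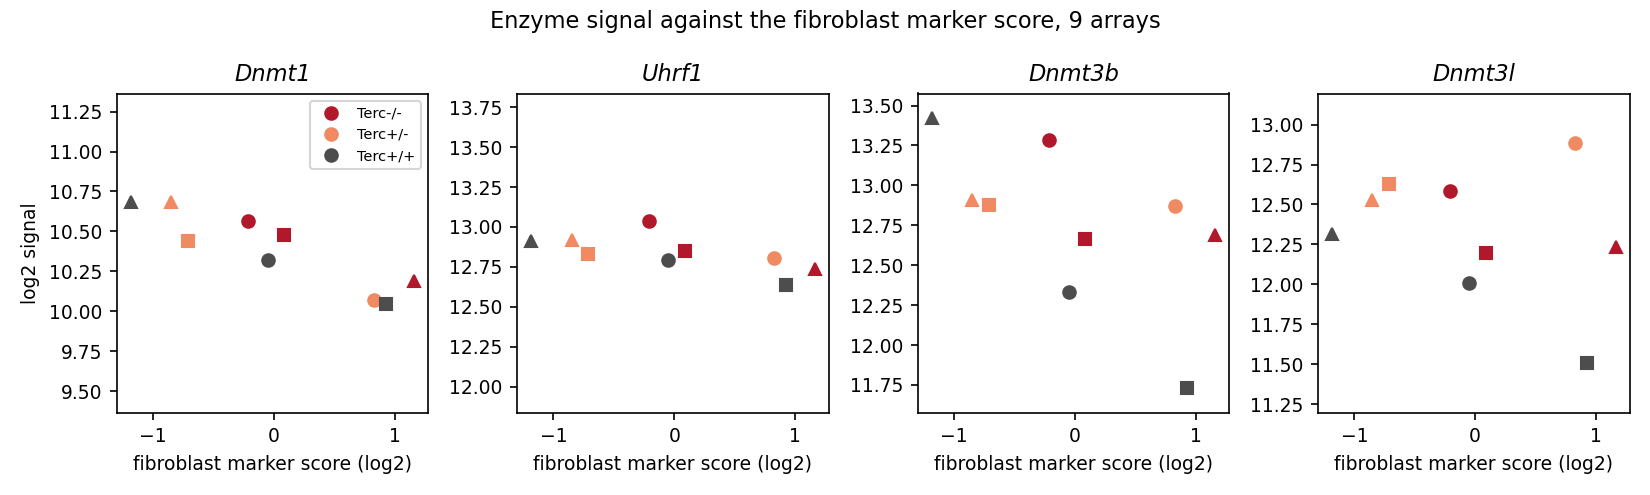
Log2 signal of 4 enzyme genes (y axis, brighter probe) against the fibroblast marker score of each array (x axis, log2 units), coloured by genotype, with circles, squares and triangles for replicates 1, 2 and 3. Dnmt1 falls along the score (r = -0.901), whereas Dnmt3l (r = -0.306) has a Terc+/- array at a high score with its highest value, 12.88.

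Where a gene had 2 probes, these ran together with an adjusted p under 0.05 for Dnmt3b and Dnmt3l, and without one for the other 3 genes. Over the 9 arrays r was 0.989 for Dnmt3l (exact permutation p = 5.51e-06, and 2.76e-05 after adjustment for 5 genes), with rho = 0.983 (exact permutation p = 4.96e-05), and 0.962 without 2 arrays. For Dnmt3b r was 0.984 (exact permutation p = 3.03e-05, adjusted 7.58e-05), with rho = 0.933 (exact permutation p = 0.00075) and r = 0.950 without 2 arrays. The Uhrf1 probes ran opposite ways without passing (r = -0.553, exact permutation p = 0.122, adjusted 0.203): Terc+/+ replicate 3 had the lowest dimmer value, 6.43, beside a high brighter value of 12.92. Tdg gave r = 0.431 (adjusted 0.297, exact permutation) and Dnmt3a r = 0.297 (adjusted 0.446), each with at least 1 probe whose mean was under 6. Without 2 arrays r was -0.559 for Uhrf1 and 0.591 for Tdg, and for Dnmt3a it turned in sign, to -0.712.

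**Figure D4:**
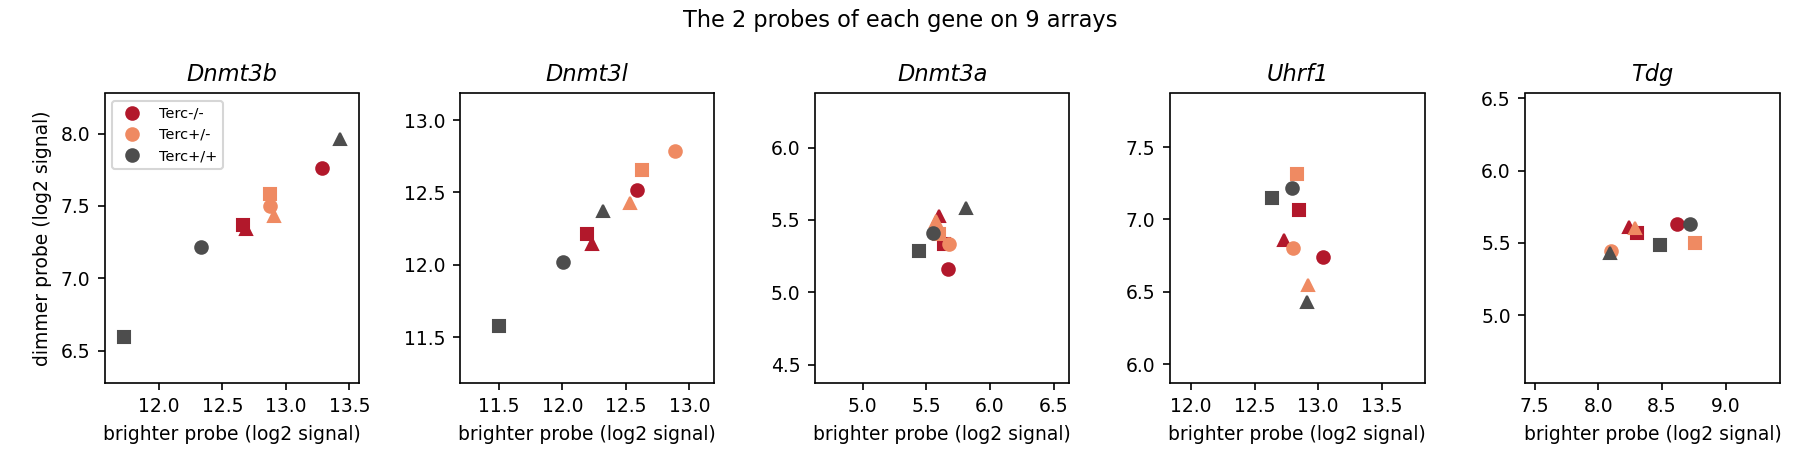
Log2 signal of the dimmer probe (y axis) against the brighter probe (x axis) of each gene with 2 probes, 1 point per array, coloured by genotype, with circles, squares and triangles for replicates 1, 2 and 3. Dnmt3b and Dnmt3l lie along a line (r = 0.984 and 0.989), and Uhrf1 does not (r = -0.553).

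Genes whose pattern over the 9 arrays was most like that of each enzyme were sought among about 5890 genes with a mean above 7, by Pearson's r, as a description. These were Osbpl11 (0.977) and Pacsin1 (0.973) for Dnmt1, Pex14 (0.980) and Ap5z1 (0.977) for Dnmt3b, Eif4h (0.934) and Ola1 (0.918) for Dnmt3l, Aste1 (0.980) and Hgh1 (0.972) for Uhrf1, Ccdc86 (0.921) and Hspa4 (0.920) for Tdg, and Slc1a3 (0.992) and Fam111a (0.977) for the dim Dnmt3a. All share the same 9 arrays, and each value was picked as the highest of many, so no p is given.

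The wider machinery around the enzymes was read from a list of 51 genes, including readers of methylation, helpers of Dnmt1, deaminases and base excision repair. Of 46 measured genes 0 passed in any comparison with limma, against 0.0389% of all probes in Terc-/- and 0% in Terc+/-, each against Terc+/+, and 0% in Terc-/- against Terc+/-. Of these 46, 10 had a mean under 6. An unadjusted p under 0.05 in Terc-/- against Terc+/+ was reached by 2 higher and 7 lower genes, against 4.78% and 5.55% of all probes, and the median was -0.07. Xrcc1, the scaffold of base excision repair, which finishes what Tdg begins, had 8.72, 9.06 and 8.79 in Terc-/- and 9.51, 9.36 and 9.44 in Terc+/+ (-0.59, SE 0.12, adjusted p = 0.153 with limma), with no overlap. In this comparison 14.8% of all probes had no overlap in either direction. Gadd45b and Gadd45a, stress-induced proteins that have been linked to active demethylation, gave -1.02 (SE 0.28, adjusted p = 0.245) and -0.94 (SE 0.26, adjusted p = 0.252), and without Terc+/+ replicate 3, where both were highest, -0.80 (adjusted p = 0.197) and -0.70 (adjusted p = 0.195). Gadd45b had 8.65, 8.82 and 9.01 in Terc-/- and 9.70, 9.54 and 10.29 in Terc+/+. Apobec1, a cytidine deaminase known for RNA editing, gave -0.46 (SE 0.12, adjusted p = 0.229).

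In Terc+/- against Terc+/+, 3 of these 46 genes were higher and 6 lower at an unadjusted p under 0.05, against 4.4% and 3.94% of all probes, with a median of -0.05. The smallest p-values were those of Gadd45b (-0.91, SE 0.28, adjusted p = 0.397 with limma) and of Trdmt1, a relative of the Dnmt enzymes that methylates tRNA (0.36, SE 0.11, adjusted p = 0.417). Between Terc-/- and Terc+/-, 0 genes had an unadjusted p under 0.05. Apobec3, a deaminase that restricts retroviruses, gave -0.22 and Tet3, the remaining Tet enzyme, -0.15 (adjusted p = 1.00 each). Both Tet3 probes were dim, between 5.52 and 5.93 on all arrays, so no Tet enzyme was measured well above the bottom of the scale. Of 20 measured germline genes that DNA methylation is known to silence, 0 passed in any comparison, at the same low shares of all probes. Of these 20, 11 had a mean under 6, where a change may go unseen, and the median level of the list was 5.96. Without Terc+/+ replicate 3, 1 of 20 passed in Terc-/- against Terc+/+, where 367 of all 25697 probes did: Dazl, an RNA-binding protein of germ cells, named after its values were seen. Dazl had 7.02, 7.51 and 6.88 in Terc-/- and 8.75, 8.45 and 6.65 in Terc+/+, which gave -0.81 on all arrays (adjusted p = 0.655 with limma) and -1.46 without Terc+/+ replicate 3 (SE 0.21, adjusted p = 0.0300). Tex11, a meiotic gene on the X chromosome, had 8.22, 8.13 and 7.83 in Terc-/-, 7.997, 8.005 and 8.397 in Terc+/- and 7.53, 7.22 and 7.56 in Terc+/+, with both other genotypes above Terc+/+ (0.62, SE 0.15, adjusted p = 0.205, and 0.70, SE 0.15, adjusted p = 0.243, limma). Taken singly, these comparisons had no overlap in either direction for 14.8% and 12.2% of all probes. Terc+/- alone was higher without overlap for 6.81%, and the share with both genotypes higher is not given here. Dpep3, next by p in Terc-/- against Terc+/+, gave -0.22 (SE 0.11, adjusted p = 0.566). The list's median was -0.05 in Terc-/- and -0.04 in Terc+/-, each against Terc+/+.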

How the data were processed

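Expression was measured on Illumina bead arrays from biotin-labelled amplified RNA, per the labels' protocols. The values used are log2 signals that the authors deposited in the series' value table. Scale and quantile-like normalization were read from the values (5.11 to 14.8, equal distributions on all arrays). Software and background correction are not given in the sources used here. Raw signals were deposited in another table that has 18 columns named by chip and position (8 arrays on 1 chip, 1 on another), which match no sample label, so it was not used and detection calls and chip effects were not analysed here. Depth has no meaning for arrays, and their number limits the precision (median SE 0.11 log2).

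Of 25697 probes, 23141 had 1 gene symbol in the platform annotation, 0 several and 2556 none. All 23141 matched the RefSeq table by Entrez identifier, which changed 0 symbols. Every probe was fitted in 1 model of the 3 genotypes with limma 3.58.1 in R 4.3.3 (6 residual and 2.08 prior degrees of freedom), and called two-sided where the p, adjusted by Benjamini-Hochberg over all probes of a comparison, was under 0.05. In simulated data with equal noise on every array, the fit called 67% of 100 probes changed by log2 1. Of 100 probes changed by log2 2 it called 92%. The real arrays differed in scatter (array weights from 0.21 to 6.74), so these shares need not hold here. Lists used the brightest probe of a gene. Correlations used all 362880 orders of the arrays. Members and lists were chosen with earlier results of these data known. Named genes were all members, the 2 genes most like each member, called genes of the wider list or else those of smallest p (4 in Terc-/- against Terc+/+, 2 in each other comparison), and the 2 germline genes of smallest p in Terc-/- against Terc+/+. Alternatives covered 1 probe per gene, cyclic loess, a filter on the mean, variance models, array weights, 2 genotypes at a time, replicate number as a block, the fibroblast score and leaving out each array.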

Additional observations from a re-analysis of the deposited data

How the results depend on the processing

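The count of enzyme probes called was 0 of those tested in all 3 comparisons under every alternative, with 1 exception: 2 in Terc+/- against Terc+/+ with array quality weights. The count over all probes depended on the setting. For Terc-/- against Terc+/+ it was 10, and 0 with cyclic loess, with only probes whose mean was above 6, with trend and robust variance, with only the 2 genotypes compared and with the replicate block, but 159 with the fibroblast score in the model and 3845 with array quality weights, where 88.7% of the weight of Terc+/+ lay on its replicate 1. In Terc+/- against Terc+/+ it was 0, and 235 and 751 in those last 2 settings. Leaving out 1 array gave 0 to 367 in Terc-/- against Terc+/+ (367 without Terc+/+ replicate 3, 4 without Terc+/- replicate 1, 0 without any other array) and 0 to 28 in Terc+/- against Terc+/+ (28 without Terc+/+ replicate 3). The cause was not tested. Counts of the marker, pathway and germline lists without each array were added after seeing the data.

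Of 240 log2 fold changes of enzyme probes recomputed on all 9 arrays, 9 turned in sign, none of them called. With cyclic loess these were Tdg's dimmer probe in Terc+/- against Terc+/+ (0.00063) and Dnmt3b's brighter and dimmer probes in Terc-/- against Terc+/- (0.0070 and 0.018). With array weights they were Tdg's dimmer probe in Terc-/- against Terc+/+ (-0.021), Dnmt3a's dimmer probe in Terc+/- against Terc+/+ (0.0075) and Tdg's brighter probe in Terc-/- against Terc+/- (-0.089). With the fibroblast score they were, in Terc-/- against Terc+/-, Dnmt3b's brighter (0.25) and dimmer (0.18) probes and Uhrf1's dimmer probe (-0.083).

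Leaving out 1 array turned the sign of 47 of 297 values, in 22 of the 33 log2 fold changes, none called. In Terc-/- against Terc+/+ the ranges were -0.30 to 0.10 for Uhrf1 (dimmer), -0.22 to 0.10 for Tdg (brighter), -0.046 to 0.14 for Dnmt3a (brighter), -0.089 to 0.23 for Dnmt1, -0.10 to 0.59 for Dnmt3b (dimmer) and -0.18 to 0.0021 for Dnmt3a (dimmer). In Terc+/- against Terc+/+ the ranges were -0.30 to 0.13 for Uhrf1 (dimmer), -0.060 to 0.12 for Dnmt3a (brighter), -0.044 to 0.054 for Tdg (dimmer), -0.24 to 0.10 for Tdg (brighter), -0.10 to 0.22 for Dnmt1, -0.0021 to 0.14 for Uhrf1 (brighter), -0.083 to 0.60 for Dnmt3b (dimmer) and -0.087 to 0.062 for Dnmt3a (dimmer). In Terc-/- against Terc+/- the ranges were -0.17 to 0.21 for Uhrf1 (dimmer), -0.15 to 0.16 for Dnmt1, -0.061 to 0.091 for Uhrf1 (brighter), -0.14 to 0.19 for Tdg (brighter), -0.15 to 0.061 for Dnmt3b (dimmer), -0.21 to 0.10 for Dnmt3b (brighter), -0.0070 to 0.044 for Dnmt3a (brighter) and -0.16 to 0.019 for Dnmt3a (dimmer).

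Same-numbered arrays of different genotypes did not deviate together (correlations of deviations from the genotype means from -0.597 to 0.452, over 0.1 in 2 of 9 pairs), so the numbers were not taken as pairs. With the replicate block the brighter Dnmt3l probe gave 0.74 in Terc+/- against Terc+/+ (adjusted p = 0.430 with limma), and 0 enzyme probes were called in any comparison. Background correction on raw signals with a detection filter and a chip block was not run, since that table's columns match no sample label. Both Dnmt3a probes and the dimmer Tdg probe had a mean under 6, where signal over background was not analysed here and a change may go unseen.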
